A study of Mus musculus with 48 samples.

Results

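The genes described here encode collagens, laminins and other proteins of the extracellular matrix of mouse embryonic fibroblasts. They were chosen by name: every gene whose single symbol in the array's probe table is a collagen alpha chain (Col, number, a, number) or a laminin chain (Lama, Lamb or Lamc with a number), together with Fn1, Postn, Fbln1, Fbln2, Fbln5, Fbn1, Sparc, Dcn, Lum, Bgn, Lox, Loxl1, Eln, Tnc, Nid1 and Vcan. That gave 67 genes of the 18194 with a single symbol: 42 collagens, 10 laminins and 15 others. Fbn1 had no probe set named in the table. Each gene was read from its brightest probe set, and 57 genes passed the filter on dim signals described below, 35 of them collagens. The rule itself uses names and no measured value.

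RNA was measured on 48 Affymetrix mouse arrays from fibroblast lines of littermate embryos at E14.5, taken from the whole embryo apart from the head and organs. WT cells were Zfp36 +/+ and KO cells were Zfp36 -/-, from TTP +/- parents of strain 129/B6. The product of Zfp36, tristetraprolin (TTP), attaches to AU-rich stretches of mRNA and promotes their decay. Both lines were held in 0.5% serum for 16 h, given 10% serum for 90 min and then exposed to actinomycin D, which blocks transcription, for 0, 30, 60, 90 or 120 min. The series text gives its dose as 5 µg/ml and the sample names as 0.5 µg/ml. The 10 groups of line and time held 5 arrays each, or 4 for KO at 0 min and KO at 60 min, which makes 25 WT and 23 KO arrays. Replicate numbers 1 to 5 name 5 experiments on different days, each with both lines side by side, and every sample pooled 3 dishes. The labels read as if there was 1 line per genotype, without saying so outright. All p-values below therefore come from repeats of the same lines, and an effect of Zfp36 and any other difference between the lines cannot be told apart. The main fits took arrays as independent, although those of 1 experiment shared a day. Their SE and p-values can therefore overstate the precision between experiments.

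Collagens are assembled from 3 alpha chains into a triple helix. Fibrillar types (I, III, V, XI) form the ropes of connective tissue, type IV forms the sheet of the basement membrane together with laminins and nidogen, and type VI forms beaded filaments near the cell surface. Fibulins, elastin and the lysyl oxidases build and cross-link elastic fibres, small proteoglycans such as decorin and lumican coat collagen fibrils, and fibronectin, periostin, tenascin C and SPARC are glycoproteins that link cells to the matrix or change how they adhere to it. Fibroblasts are the main source of most of these proteins.

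The deposited values were log2 signals, and array medians lay between 8.47 and 8.56. Signals near 8 sat at the floor of the measurement, where the 5th percentile of the arrays lay between 8.02 and 8.13, so a difference that ends there is compressed. Among the markers of fibroblasts outside the set, 8 of 10 passed the filter, and 3 were higher and 3 lower in KO. Over all probe sets, the background for each marker list here, 27.3% were higher and 25.6% lower. The largest differences in that list were in Cdh11, an adhesion protein (-2.97), and Pdgfra, a growth factor receptor (1.30). Summed as a mean log2 level per array, the fibroblast list ranged from 9.99 to 10.37 in WT and from 9.95 to 10.14 in KO. Of 6 smooth muscle and myofibroblast markers, Tagln (1.13) and Cnn1 (0.39) were higher in KO and Actg2 (-0.71) and Acta2 (-0.43) lower. Their list ranged from 9.60 to 9.82 in WT and from 9.62 to 9.97 in KO. The neural list ranged from 8.51 to 8.69 in WT and from 8.70 to 8.87 in KO. Its gap came from Tubb3 (0.85), while S100b (0.00) and Sox2 (0.03) did not pass the test and Sox10 did not pass the filter. Whether these marker differences play a part in the matrix results was not tested. Zfp36 itself gave 9.86 ± 0.16 (SD, n = 5) in WT and 9.51 ± 0.16 (SD, n = 4) in KO at 0 min. Where this probe set lies with respect to the targeted disruption is unstated, so it does not check the genotype.

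The first comparison asked which matrix mRNAs differed in level between the lines. The difference KO minus WT was taken at each time and averaged over the 5 times, and a gene was called at a limma adjusted p under 0.05, with the Benjamini-Hochberg adjustment over all 27500 probe sets tested. Periostin, the type IV chains Col4a1 and Col4a2, fibulin 1 and Col6a3 were lower in KO, with log2 differences from -0.92 to -1.87. Tenascin C and fibulin 5 were higher, by 1.57 and 0.71. Of the 57 genes tested, 11 were higher in KO, 25 were lower and 21 were not called. That is 63.2% called, against 52.9% of all probe sets (27.3% higher and 25.6% lower). The median size of the difference was 0.12 over the members and 0.06 over all probe sets.

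Dim probe sets were called less often. The 36 members above the 75th percentile of at least 4 arrays held 29 calls (80.6%), 10 higher and 19 lower, where 70% of probe sets of that brightness were called (38.1% higher and 31.9% lower). Their median size was 0.24, against 0.13 for all such probe sets. A gene could pass through 1 line alone. Lum reached this cut only in KO arrays and Col7a1 only in WT arrays, and Col5a3 passed the main filter only through WT arrays. Such genes were likely to be called, and they count in the members' shares. The same filters set the shares over all probe sets. The 21 dimmer members held 1 higher and 6 lower, none beyond 0.20, near the share of all dimmer probe sets (34.8% of 13325 called). Differences above 0.5 were found in 2 genes that were higher (Tnc and Fbln5) and in 8 that were lower (Postn, Col4a1, Fbln1, Col6a3, Col4a2, Col12a1, Col7a1 and Col11a1). The share of all probe sets beyond 0.5 was not counted, so these numbers set no contrast with other genes. Arrays of 1 line from 1 experiment shared a day. With the arrays of each experiment averaged first, 7 members were higher and 19 lower, against 18% and 15.5% of all probe sets. That fit set 5 values against 5 and did not pair the lines by experiment. The 10 calls lost were those of Col1a2, Dcn, Lama2 and Loxl1 among the higher and Col18a1, Col24a1, Col27a1, Col2a1, Col3a1 and Col9a1 among the lower. Of these, Col1a2, Lama2, Loxl1, Col27a1 and Col9a1 had 1 sign in all 5 experiments.

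**Figure D1:**
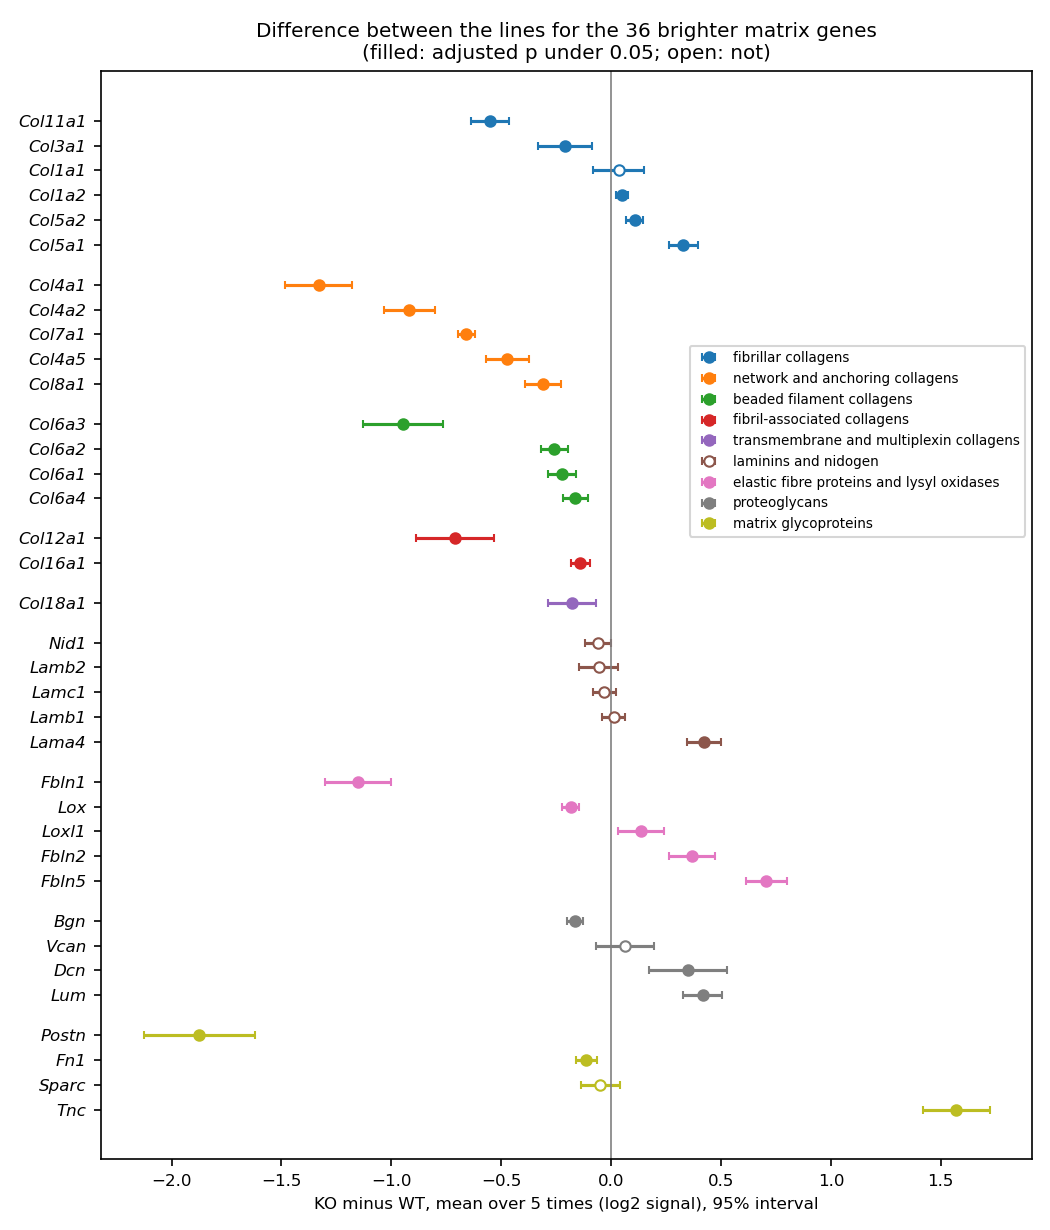
Difference between the lines (KO minus WT, log2 signal, mean over 5 times) for the 36 brighter matrix genes, grouped and coloured by role. Bars are 95% intervals from the fit, filled points passed the adjusted p of 0.05, and Postn (-1.87) and Tnc (1.57) are the ends of the range, while every called network, beaded filament and fibril-associated collagen lies to the left of 0.

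In 8 genes the 48 arrays separated by line with no overlap at any time, as in 4.89% of all probe sets. KO arrays lay below all WT arrays for Postn, Col4a1, Col4a2, Fbln1 and Col7a1, and above them for Tnc, Fbln5 and Lama4. Over all probe sets, 2.49% had KO below and 2.4% KO above in this way. The same direction was called at each of the 5 times, as in 7.92% (higher) and 7.19% (lower) of all probe sets, in 6 genes that were higher (Col5a1, Fbln2, Fbln5, Lama4, Lum and Tnc) and 14 that were lower (Bgn, Col11a1, Col12a1, Col4a1, Col4a2, Col4a5, Col5a3, Col6a1, Col6a2, Col6a3, Col7a1, Fbln1, Lox and Postn). At 0 min, before actinomycin D, 8 members were higher and 15 lower (40.4% called, against 25.3% of all probe sets, 13.4% higher and 11.9% lower). At 30 min 6 were higher and 19 lower (43.9%, against 26.5%, with 3992 of 27500 probe sets higher and 12% lower). At 60 min 6 were higher and 18 lower (42.1%, against 23.7%, 10.8% higher and 12.8% lower). At 90 min 6 were higher and 15 lower (36.8%, against 27.3%, with 13.8% higher and 3719 of 27500 probe sets lower). At 120 min 8 were higher and 19 lower (47.4%, against 32.2%, 18.7% higher and 13.4% lower). The shares over all probe sets in this paragraph were not matched to the members' brightness. Nor were those given below beside roles and lists, unless brighter probe sets are named.

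The 4 matrix glycoproteins held the widest range. Postn encodes periostin, a matricellular protein that binds collagen and integrins. The log2 signals of experiments 1 to 5 at 0 min in WT were 11.18, 11.16, 11.45, 11.87 and 11.96, and those of experiments 1 to 4 in KO were 9.37, 9.24, 9.06 and 10.56. Over all times WT ranged from 11.14 to 12.02 with a median of 11.37, and KO from 9.06 to 10.62 with a median of 9.44. The lines did not overlap, and both stood highest in experiments 4 and 5. The difference was -1.87 ± 0.13 (SE; 3.66-fold lower in KO; limma adjusted p = 3.16e-17).

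Tnc encodes tenascin C, an oligomeric glycoprotein known to rise in embryonic and healing tissue. At 0 min WT gave 8.93, 8.74, 8.66, 9.04 and 8.98, and KO gave 10.47, 10.45, 10.35 and 10.90. Over all times WT ranged from 8.66 to 9.61 (median 9.13) and KO from 10.35 to 11.25 (median 10.62), again with no overlap. The difference was 1.57 ± 0.08 (SE; 2.97-fold higher in KO; limma adjusted p = 2e-22). A second Tnc probe set gave 0.51 ± 0.04 (SE), in the same direction but smaller.

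The 250 bases before the start of Postn and of Tnc are shown because these genes mark the ends of the range. They come from RefSeq on GRCm38.p6, and of the 2 starts listed for each gene the one whose upstream bases hold TATAAA, the core of a TATA box, is given. Postn is at chr3:54360857-54361106 on the plus strand and Tnc at chr4:64047016-64047265 on the minus strand, and capitals mark TATAAA.
Postn: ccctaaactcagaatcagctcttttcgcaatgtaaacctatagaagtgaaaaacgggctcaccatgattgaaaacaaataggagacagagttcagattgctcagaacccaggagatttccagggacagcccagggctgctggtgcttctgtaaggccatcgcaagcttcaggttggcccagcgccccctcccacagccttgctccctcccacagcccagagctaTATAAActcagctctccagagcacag
Tnc: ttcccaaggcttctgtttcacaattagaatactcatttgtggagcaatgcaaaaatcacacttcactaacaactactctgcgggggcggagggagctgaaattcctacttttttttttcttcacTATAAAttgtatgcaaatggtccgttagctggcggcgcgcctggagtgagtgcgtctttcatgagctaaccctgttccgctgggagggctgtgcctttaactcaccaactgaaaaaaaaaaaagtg
In Postn the motif begins 26 bases before the start and in Tnc 126 bases before it. RefSeq promoter entries matched 47 of the 67 members. TATAAA, on either strand, was in the 250 upstream bases of 14.9% of these, against 14.3% of all 27025 genes with an entry. GGGCGG, the core of a GC box, was in 61.7% against 35.4%, CCAAT in 36.2% against 37.5%, and TGAGTCA, an AP-1 sequence, in 2.13% against 5.16%. A gene was counted if any of its listed starts had the motif upstream. The members and all genes were not matched for their number of starts or for presence on the array. These are counts of letters in a window and show no binding.

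Fn1, which encodes fibronectin, the adhesion protein bound by many integrins, ranged from 11.66 to 11.95 in WT (median 11.77) and from 11.58 to 11.85 in KO (median 11.67). Most of the 2 ranges overlapped. The difference was -0.11 ± 0.02 (SE; limma adjusted p = 4.86e-05), while a second Fn1 probe set gave -0.68 ± 0.08. Sparc, a calcium-binding protein needed for normal collagen deposition, differed by -0.05, with a 95% interval from -0.14 to 0.04 (limma adjusted p = 0.364). With the experiment as a block it was called, at -0.06 (limma adjusted p = 0.0219).

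**Figure D2:**
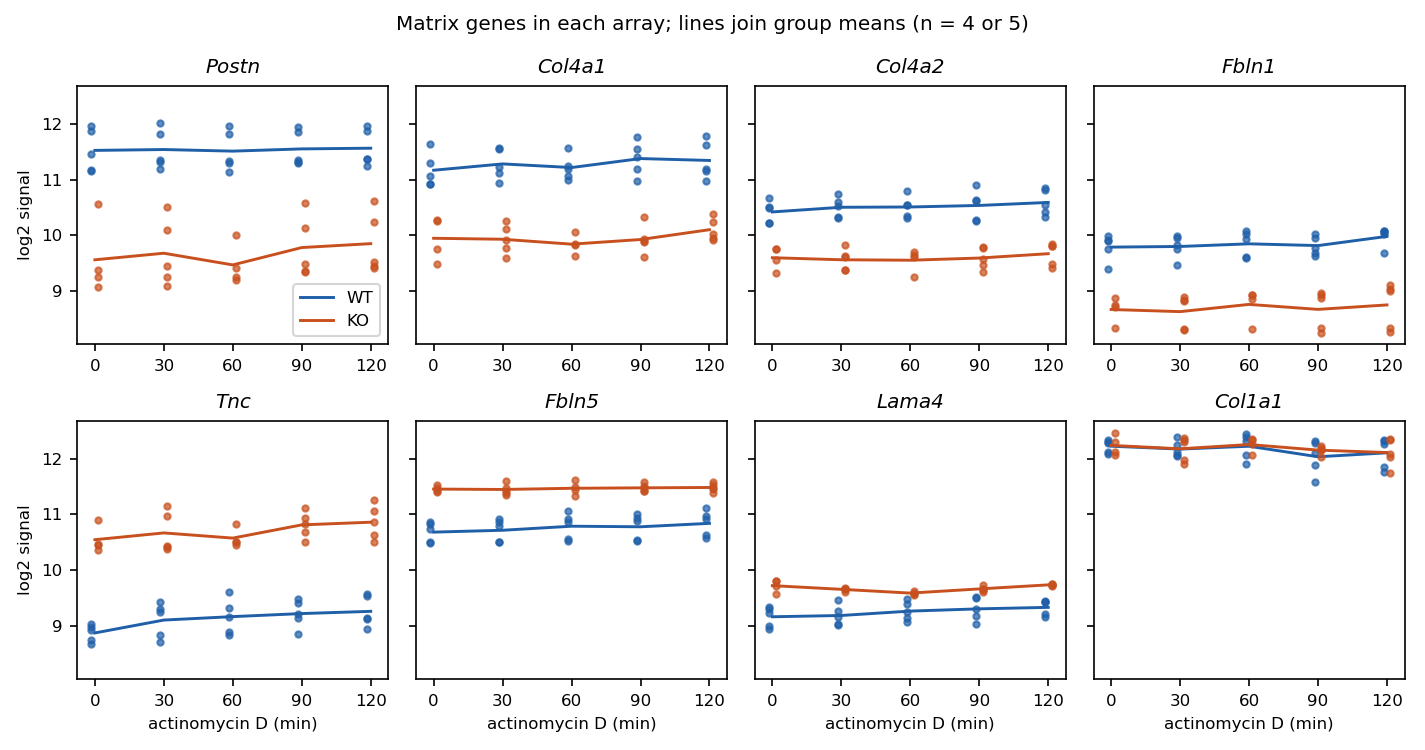
Log2 signal of 8 matrix genes in each array against minutes of actinomycin D, WT in blue and KO in orange. Points are single arrays and lines join the means of groups of 4 or 5. The lines run nearly level and apart for Postn, Col4a1, Col4a2, Fbln1, Tnc, Fbln5 and Lama4, and on top of each other for Col1a1.

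Network and anchoring collagens were lower in KO in 5 of the 7 members tested (71.4%), with a median of -0.47, and none was higher. Over all probe sets 25.6% were lower and 27.3% higher, and over the brighter ones 31.9% and 38.1%. Col4a1 and Col4a2 encode the 2 chains of the common type IV collagen of basement membranes. For Col4a1, WT ranged from 10.91 to 11.78 (median 11.20) and KO from 9.49 to 10.38 (median 9.91). For Col4a2, WT ranged from 10.21 to 10.90 (median 10.53) and KO from 9.24 to 9.84 (median 9.61). Neither gene had a KO array as high as any WT array. The differences were -1.33 ± 0.08 (SE; 2.52-fold; limma adjusted p = 1.2e-19) and -0.92 ± 0.06 (SE; 1.89-fold; limma adjusted p = 3.17e-18).

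The 2 genes are neighbours on chromosome 8 and are read in opposite directions from a shared promoter. The stretch at their annotated starts is shown because the pair was low together. In RefSeq on GRCm38.p6 it lies at chr8:11312801-11312830 on the plus strand, and the 22 bases in capitals are part of both annotated transcripts.
Col4a1 and Col4a2: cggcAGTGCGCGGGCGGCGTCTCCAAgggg
Col4a5, a chain of the type IV network of kidney and skin, lay next to Col4a6 on chromosome X, in a like arrangement. Col4a5 was lower in KO, from 10.39 to 10.88 in WT (median 10.54) and from 9.77 to 10.52 in KO (median 10.13), by -0.47 ± 0.05 (SE; limma adjusted p = 1.13e-11). Col4a6 was dim in both lines, at 8.43 to 8.65 in WT and 8.43 to 8.62 in KO, and differed by -0.01. Col4a4 was also dim and differed by 0.01.

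Col7a1, the chain of the anchoring fibrils that fasten basement membrane to dermis, ranged from 8.76 to 9.13 in WT and from 8.25 to 8.38 in KO. Its difference of -0.66 ± 0.02 (SE; 1.58-fold; limma adjusted p = 2.88e-31) ended near the floor in KO. After subtraction of each array's 5th percentile it was -2.20. Col8a1, a short-chain network collagen, was lower by 0.31 on the log2 scale, with ranges that overlapped, 10.09 to 10.68 in WT and 10.01 to 10.31 in KO.

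The beaded filament collagens were lower in KO in 4 of 6 members (66.7%, against 25.6% of all probe sets), with none higher (against 27.3%). Type VI collagen is a trimer of the Col6a1, Col6a2 and Col6a3 chains. Col6a1 ranged from 11.08 to 11.52 in WT (median 11.31) and from 10.96 to 11.28 in KO (median 11.09), and Col6a2 from 10.49 to 10.90 in WT (median 10.71) and from 10.27 to 10.62 in KO (median 10.45). Their ranges overlapped in part, and their differences were -0.22 ± 0.03 and -0.26 ± 0.03 (SE; limma adjusted p = 4.79e-08 and 3.54e-10). Col6a3 ranged from 10.38 to 11.01 in WT (median 10.72) and from 9.31 to 10.47 in KO (median 9.62), a difference of -0.95 ± 0.09 (SE; 1.93-fold; limma adjusted p = 1.62e-12). Averaged over all experiments, the chains of this trimer were therefore all lower but by different amounts. In experiments 4 and 5 the amounts were closer. There Col6a3 differed by -0.21 and -0.40, Col6a1 by -0.18 and -0.27, and Col6a2 by -0.12 and -0.30. Fibril-associated collagens, which sit on the surface of fibrils, were lower in 4 of 8 (50%, against the same 25.6%). The largest was Col12a1, at 9.18 to 10.39 in WT (median 9.98) and 8.68 to 9.53 in KO (median 9.25), with some overlap and a difference of -0.71 ± 0.09 (SE; 1.64-fold; limma adjusted p = 2.33e-09). It was -1.13 with the 5th percentile subtracted and -0.36 by the second probe set. Another Col12a1 probe set was not called, and the values of the 3 tested spanned 0.71 on the log2 scale. The other fibril-associated collagens called were Col16a1 (-0.14), Col20a1 (-0.12) and Col9a1 (-0.07), the last not called with experiments averaged. Among transmembrane and multiplexin collagens only Col18a1, a basement membrane collagen, was called (-0.18, 1 of 4, or 25%, near the 25.6% of all probe sets). That call was lost with experiments averaged, without experiment 2, and in experiments 4 and 5.

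Fibrillar collagens moved in both directions, with 3 higher and 6 lower of 10 tested (30% and 60%, against 27.3% and 25.6% of all probe sets). With experiments averaged first, 2 stayed higher (Col5a1 and Col5a2) and 2 lower (Col11a1 and Col5a3), against 18% and 15.5% of all probe sets. The chains of type I collagen, the most abundant collagen of connective tissue, differed little. Col1a1 ranged from 11.57 to 12.45 in WT (median 12.24) and from 11.75 to 12.47 in KO (median 12.19). The lines overlapped almost fully, and the difference was 0.03, with a 95% interval from -0.08 to 0.15 (limma adjusted p = 0.64). Col1a2 was higher by 0.05 ± 0.01 (SE; limma adjusted p = 0.00161), 1.04-fold, and was not called with experiments averaged first (adjusted p = 0.15). Both signals lay near the top of the arrays, whose highest values were 13.28 to 13.43.

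The minor fibrillar chains differed more. Col5a1, a chain of type V collagen that helps start fibrils, ranged from 10.48 to 10.92 in WT (median 10.77) and from 10.86 to 11.28 in KO (median 11.09), a difference of 0.33 ± 0.03 (SE; limma adjusted p = 9.68e-12). Its partner Col5a2 was higher by 0.11 ± 0.02 (SE; limma adjusted p = 4.18e-06), and by 0.29 by its second probe set. Col11a1, which encodes a chain that assembles with type V chains in some tissues, ranged from 10.89 to 11.50 in WT (median 11.22) and from 10.49 to 11.05 in KO (median 10.69), a difference of -0.55 ± 0.04 (SE; limma adjusted p = 4.58e-15). Col5a3, another type V chain, was lower by 0.20 on the log2 scale at signals of 8.14 to 8.60. Col3a1, the type III chain, was lower by 0.21 on the log2 scale over all arrays (limma adjusted p = 0.00358), but differed between experiments as described below. Col3a1 and Col5a2 are neighbours on chromosome 1 and were called in opposite directions.

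Laminins and nidogen, the partners of type IV collagen in basement membranes, were mostly not called. Lamb1 and Lamc1 encode the beta and gamma chains found in most laminins. Lamb1 ranged from 10.62 to 11.001 in WT (median 10.83) and from 10.72 to 10.98 in KO (median 10.84). Lamc1 ranged from 9.82 to 10.25 in WT (median 10.10) and from 9.80 to 10.24 in KO (median 10.03). The lines overlapped almost fully in both. The differences were 0.01, with a 95% interval from -0.04 to 0.06, and -0.03, from -0.08 to 0.02. Lamb2 differed by -0.06 (from -0.14 to 0.03). Nid1, which links laminin to type IV collagen, differed by -0.06 (limma adjusted p = 0.0732) and was called with the experiment as a block (-0.06, adjusted p = 0.0433), without experiment 1 (-0.08) and without experiment 3 (-0.10). The intervals of these 4 genes exclude differences as large as those of Col4a1 and Col4a2. Lama4, the alpha chain of the laminin of vessels and mesenchyme, was higher in KO. It ranged from 8.94 to 9.51 in WT (median 9.24) and from 9.55 to 9.80 in KO (median 9.66), with no overlap and a difference of 0.42 ± 0.04 (SE; 1.34-fold; limma adjusted p = 3.36e-13). It was 0.70 with the 5th percentile subtracted and 0.24 by the second probe set. Lama2 was higher by 0.13 at signals below 8.66. In all, 2 of 8 members of this group were higher (25%, near the 27.3% of all probe sets) and none lower. With experiments averaged, Lama4 alone was called.

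Fibulins were split. Fbln1, a fibulin of basement membranes and elastic fibres, ranged from 9.40 to 10.08 in WT (median 9.92) and from 8.25 to 9.10 in KO (median 8.83), with no overlap and a difference of -1.15 ± 0.07 (SE; 2.22-fold; limma adjusted p = 5.67e-18). Since KO arrays reached the floor, that size is uncertain: it was -2.31 with the 5th percentile subtracted and -0.61 by the second probe set. Another Fbln1 probe set was not called, and the values of the 3 tested spanned 1.15 on the log2 scale. Fbln5, needed for elastic fibre assembly, ranged from 10.49 to 11.12 in WT (median 10.82) and from 11.33 to 11.61 in KO (median 11.47), with no overlap and a difference of 0.71 ± 0.05 (SE; 1.63-fold; limma adjusted p = 1.44e-17). Fbln2 was higher by its brightest probe set, from 9.55 to 10.20 in WT (median 10.01) and from 9.59 to 10.66 in KO (median 10.34), by 0.37 ± 0.05 (SE; limma adjusted p = 5.46e-08). Its second probe set was lower, by -0.24 ± 0.02 (SE; limma adjusted p = 1.58e-11), so the direction for Fbln2 depends on the probe set. Eln, which encodes elastin, was dim at 8.33 to 8.71 and differed by -0.01. The cross-linking enzymes differed little: Lox was lower by 0.18 and Loxl1 higher by 0.13, both called. The Loxl1 call was lost with experiments averaged, under quantile normalization, and without experiment 1 or 3.

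Among the proteoglycans, Dcn (decorin) and Lum (lumican) were higher in KO and Bgn (biglycan) lower. Dcn and Lum are neighbours on chromosome 10. Lum ranged from 8.21 to 8.58 in WT (median 8.37), near the floor, and from 8.48 to 9.19 in KO (median 8.81), a difference of 0.42 ± 0.04 (SE; limma adjusted p = 2.63e-11). With the 5th percentile subtracted it was 1.38. Dcn ranged from 10.59 to 11.24 in WT (median 10.97) and from 10.63 to 11.78 in KO (median 11.22). The overlap was wide, and the difference was 0.35 ± 0.09 (SE; limma adjusted p = 0.00069), not called with experiments averaged (adjusted p = 0.109). Bgn was lower by 0.16 on the log2 scale, at 12.05 to 12.37 in WT and 12.01 to 12.18 in KO. Vcan, the large proteoglycan versican, differed by 0.06 (limma interval from -0.07 to 0.19).

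Several of these differences were not the same in every experiment. A test of whether KO minus WT varied over the 5 experiments, added after the values of each experiment were seen, called 20 of 57 members (35.1%), against 28.8% of all probe sets. Dcn varied most. Its difference was -0.25, 0.04, 0.20, 1.09 and 0.87 in experiments 1 to 5 (limma F test adjusted p = 1.9e-23). Its KO mean moved from 10.74 in experiment 1 to 11.72 and 11.75 in experiments 4 and 5, while WT stayed between 10.65 and 11.15. For Vcan the differences were -0.29, -0.21, -0.18, 0.60 and 0.50, and for Col3a1 -0.50, -0.54, -0.28, 0.20 and 0.25. The differences of both genes were below 0 in experiments 1 to 3 and above 0 in experiments 4 and 5. A mean over all experiments describes neither set for these 3 genes. Without experiment 1 or 2 the pooled call of Col3a1 was lost (-0.13 and -0.12), and without experiment 4 that of Dcn (0.19). Restricted to experiments 1 to 3, a split also made after seeing the values, the difference of Dcn was -0.0025 (adjusted p = 0.98) and that of Col3a1 -0.44 (adjusted p = 1.68e-10). In experiments 4 and 5 they were 0.98 (adjusted p = 4.04e-10) and 0.22 (adjusted p = 5.68e-06).

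Col6a3 kept its direction but not its size, at -1.42, -1.19, -1.26, -0.21 and -0.40. Its KO means were 9.44, 9.58, 9.46, 10.34 and 10.35 and its WT means 10.86, 10.77, 10.73, 10.55 and 10.72, so the KO line was higher in the last 2 experiments. Of the 20 genes that varied, 10 had a higher difference in both experiments 4 and 5 than in any of 1 to 3 (Dcn, Col6a3, Col3a1, Vcan, Fbln5, Lox, Lum, Lama4, Col11a1 and Col5a2). Col8a1 and Fbln1 had a lower one, and the other 8 had neither pattern. How many of all varying probe sets had either pattern was not counted. Fbln1 reached 8.25 to 8.34 in all KO arrays of experiments 4 and 5, near the floor. Other genes gave nearly the same value each time. Col4a1 gave -1.33, -1.39, -1.36, -1.22 and -1.30, and Col4a2 gave -0.92, -0.91, -0.995, -0.89 and -0.97. In all, 31 of the 36 called genes had 1 sign in 5 of 5 experiments, and the exceptions were Col18a1, Col24a1, Col2a1, Col3a1 and Dcn. The genes were called from these same experiments, so a shared sign is in part built in. The share over all called probe sets was not counted. Labels name no batch beyond the day of the experiment, and whether passage, density or another property of the culture moved with these values was not tested.

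**Figure D3:**
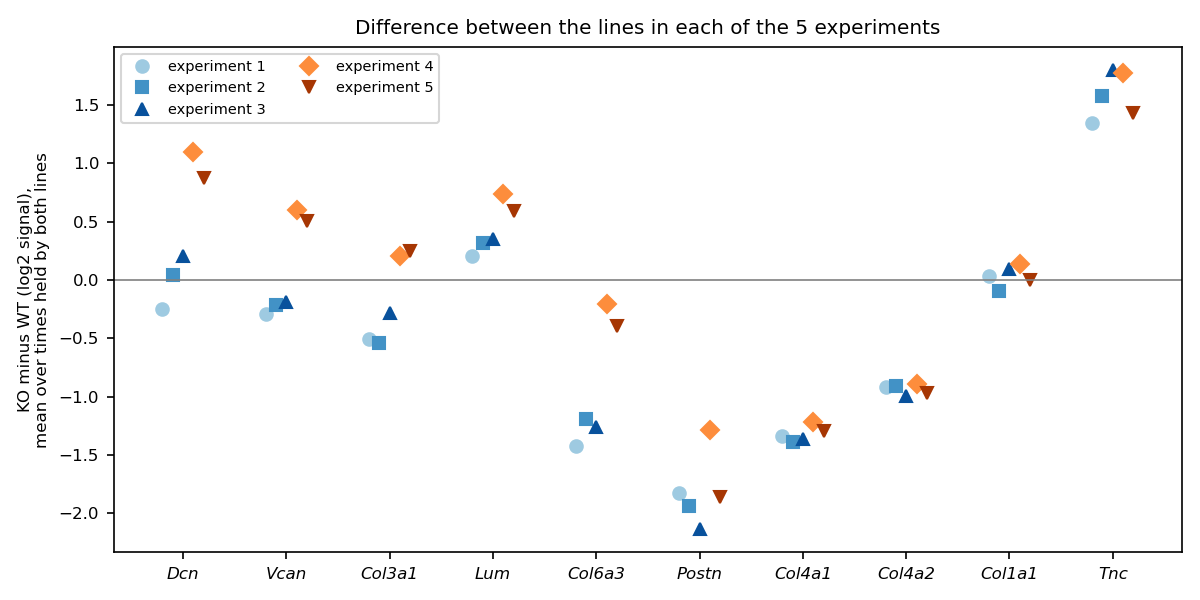
KO minus WT (log2 signal, mean over the times held by both lines) in each of the 5 experiments for 10 matrix genes. Col4a1 lies between -1.39 and -1.22 in every experiment, while Dcn runs from -0.25 to 1.09 and Vcan and Col3a1 lie on both sides of 0, with experiments 4 and 5 (orange and brown) above experiments 1 to 3 (blue).

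The second comparison asked how matrix mRNAs changed after transcription was blocked, with and without TTP. Values are relative to the array as a whole, so a rise after actinomycin D can mean a slower loss than that of the average transcript. Over 120 min in WT, 4 of 57 members rose (Fbln2, Col7a1, Col5a3 and Col20a1) and none fell by limma at an adjusted p of 0.05, where 10% of all probe sets rose and 14% fell (24% in all). Without adjustment 1 fell at p under 0.05. In KO, 3 rose (Fbln2, Nid1 and Lamc1) and none fell, where 11.9% of all probe sets rose and 10.6% fell (22.5% in all), and without adjustment 0 fell. The changes of single members ran from -0.12 (Col1a1) to 0.39 (Tnc) in WT and from -0.14 (Sparc) to 0.36 (Col6a3) in KO. The lowest bound of any 95% interval was -0.52 in WT (Postn) and -0.40 in KO (Col1a1).

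**Figure D4:**
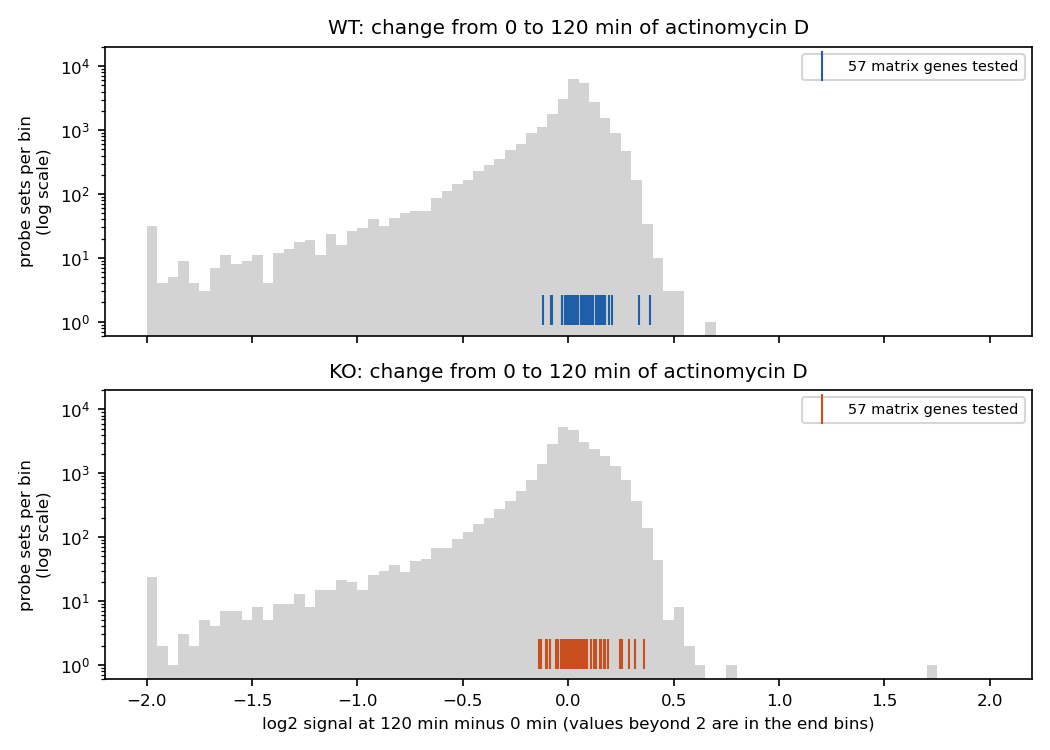
Change in log2 signal from 0 to 120 min of actinomycin D in WT (top) and KO (bottom). Grey bars count all 27500 probe sets on a log scale, with a long tail to the left, and coloured ticks are the 57 matrix genes, running from -0.12 to 0.39 in WT and from -0.14 to 0.36 in KO.

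Fbln2 was called as rising in both lines by its brightest probe set, and in neither line by its second. In WT its signals were 9.76, 9.55, 9.57, 9.86 and 10.01 at 0 min and 10.05, 10.00, 10.08, 10.20 and 10.08 at 120 min, with only the fifth array at 0 min within the later range. The rise was 0.33 ± 0.11 (SE; limma adjusted p = 0.025), and the call was lost without experiment 1 (0.35, adjusted p = 0.0672) or 2 (0.30, adjusted p = 0.12). In KO it was 0.32 ± 0.12 (SE; adjusted p = 0.0499), from 10.29, 10.05, 9.59 and 10.46 to 10.36, 10.26, 10.48, 10.63 and 10.35. Without experiment 3 the KO value was 0.13 (adjusted p = 0.482), and without experiment 1, 2 or 5 the adjusted p was 0.0561, 0.121 and 0.0631. The KO call of Fbln2 was also lost under quantile normalization, without the filter, after background subtraction and with plain moderation. In experiments 4 and 5 alone it was called in neither line. Col7a1 rose in WT from 8.78, 8.81, 8.85, 8.85 and 8.89 to 9.06, 9.04, 8.90, 9.10 and 9.13, with no overlap, by 0.21 ± 0.04 (SE; limma adjusted p = 7.9e-05). Its KO change was 0.05, at signals near the floor. Nid1 rose in KO by 0.19 ± 0.07 (SE; adjusted p = 0.0402), from 11.09, 11.11, 11.04 and 10.89 to 11.23, 11.18, 11.33, 11.19 and 11.15, with no overlap. Its call was lost without experiment 1, 3, 4 or 5 (0.15 to 0.20). In the same line Lamc1 rose by 0.17 ± 0.06 (SE; adjusted p = 0.0378). That call was lost without experiment 2, 3 or 4, under quantile normalization, without the filter and after background subtraction. With the experiment as a block, 9 members rose in WT (Tnc, Fbln5, Lama4, Col4a2 and Col5a1 in addition) and Col1a2 fell, and 7 rose in KO (Tnc, Col12a1, Col16a1 and Col4a5 in addition). In that fit 15.3% of all probe sets rose and 16.2% fell in WT, and 17.2% rose and 13.2% fell in KO, so the members' rises were near or below that background.

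Col1a2 gave the smallest adjusted p among the falls. In WT it went from 12.47, 12.53, 12.57, 12.60 and 12.56 to 12.45, 12.53, 12.47, 12.47 and 12.44, a change of -0.08 ± 0.03 (SE; limma adjusted p = 0.0578). As a slope over all 5 times it fell by 0.04 log2 per h in WT (limma adjusted p = 0.0148). The change in KO over 120 min was -0.06 (adjusted p = 0.19). It was the only member with a falling slope in WT, where 4 had a rising one (Fbln2, Col7a1, Col5a3 and Col4a6), beside 13.9% of all probe sets rising and 15.1% falling (29% in all). In KO, 5 had a rising slope (Fbln2, Col4a5, Nid1, Lamc1 and Col16a1), beside 15% rising and 12.3% falling (27.3% in all).

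The slopes of the lines were then compared directly, which is the comparison the study's title names, of transcripts stabilised without TTP. None of the 57 members differed in slope by limma at an adjusted p of 0.05, where 1.04% of all probe sets did (0.785% higher and 0.251% lower), and without adjustment 0 were higher and 1 lower in KO at p under 0.05. The differences of slope (KO minus WT) ran from -0.09 log2 per h for Loxl1 to 0.12 for Postn. The smallest adjusted p was 0.558, for Col5a3. The 95% intervals of all members lay within -0.24 (Fbln1) and 0.46 (Postn) log2 per h. Single members could thus have differed by amounts inside that range without being called. For Col4a1 the slope difference was -0.02 (95% interval -0.23 to 0.18) and for Tnc -0.02 (-0.23 to 0.18), beside level differences of -1.33 and 1.57.

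Probe sets of the same gene did not always give the same value, which limits how far a size can be read. Of 30 members with more than 1 tested probe set, 17 had all of them called in the same direction and 8 had none called. In 4 (Col12a1, Col1a2, Col6a4 and Fbln1) only some were called, and Fbln2 was called in both directions. The second Tnc probe set fell in KO over 120 min, by -0.41 ± 0.10 (SE; limma adjusted p = 0.00212), where the brighter one changed by 0.31 (adjusted p = 0.208). Which transcript forms each probe set reads was not examined.

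**Figure D5:**
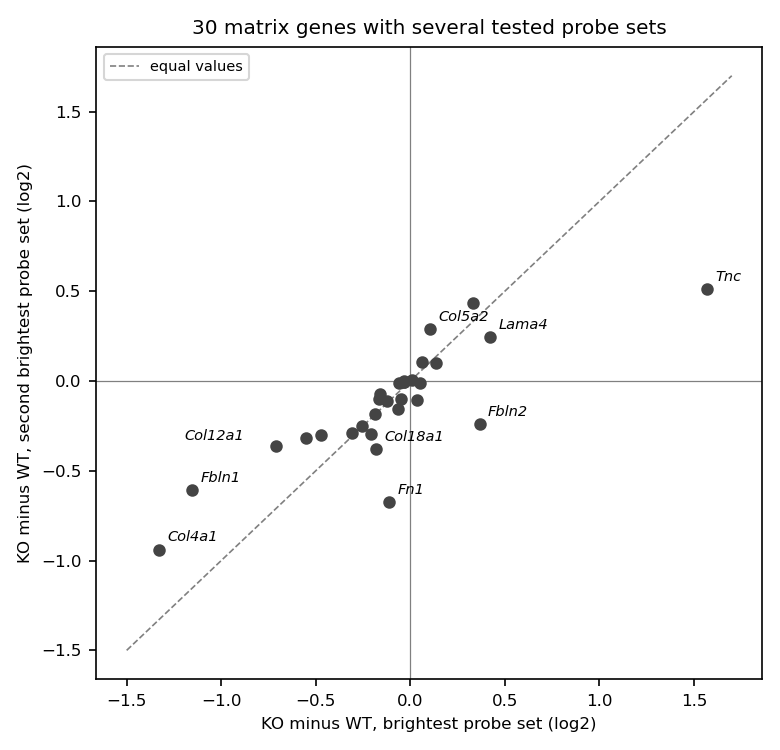
KO minus WT (log2, mean over 5 times) by the second brightest probe set against the brightest for the 30 matrix genes with several tested probe sets. Most points lie near the dashed line of equal values, Fbln2 (0.37 and -0.24) lies in the lower right part of the plot, and Tnc (1.57 and 0.51) and Fn1 (-0.11 and -0.68) lie far from the dashed line.

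Genes that make, bind and cut the matrix were counted from 3 further lists. Of 20 tested genes for collagen synthesis and processing, 6 were higher in KO and 10 lower, against the same 52.9% called over all probe sets. Plod2, a lysyl hydroxylase whose product shapes cross-links, was lower by 0.56, and P4hb, a subunit of prolyl hydroxylase, was higher by 0.32. Of 18 matrix receptors, 7 were higher and 7 lower, beside 27.3% and 25.6% of all probe sets. Itga1, the alpha 1 chain of a collagen receptor, was lower by -1.10 ± 0.05 (SE; limma adjusted p = 8.93e-24), and Itga8, the alpha 8 chain of a fibronectin and tenascin receptor, was higher by 0.65. Of 18 proteases and inhibitors, 5 were higher and 5 lower, near the same 27.3% and 25.6%. Mmp2, gelatinase A, which cuts type IV collagen, was the farthest, at -2.59 ± 0.04 (SE; 6.02-fold lower; limma adjusted p = 1.63e-43). Adamts9 was higher by 0.61. Over 120 min of actinomycin D, 3 of the 18 proteases and inhibitors fell and 0 rose in WT, beside 14% and 10% of all probe sets. In KO 3 fell and 3 rose, beside 10.6% and 11.9%. Adamts1 and Adamts5 fell by 1.01 and 0.59 in WT and by 0.84 and 0.93 in KO. None of the 57 matrix genes was called lower in either line by its brightest probe set in the fit without a block.

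The 10 members that did not pass the filter were Col10a1, Col11a2, Col14a1, Col15a1, Col17a1, Col4a3, Col8a2, Lama1, Lamb3 and Lamc3. Their signals lay between 8.07 and 8.65 in all 48 arrays. At that brightness these arrays cannot tell a low level from none.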

How the data were processed

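Each of 48 arrays received 15 µg of cRNA made from 1 µg of total RNA and was scanned under GeneChip Operating Software 1.2.0.037, per the labels' protocols. The authors deposited log2 signals per probe set. The log base was inferred from the values, and the summarising, background correction and normalization are not given in the sources used here. The deposited scaling was kept. Of 45101 probe sets, 64 controls were left out, and 27500 above the array median in at least 4 arrays were tested. Symbols came from the platform table (35890 probe sets).

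Fits used limma 3.58.1 in R 4.3.3 (intensity trend, robust, two-sided) on all 48 arrays, with either a mean per group or an intercept and slope per line, and were tested on simulated data. The simulated arrays were independent and held no effect of day, so they do not check the fits for arrays that share a day. Errors are SE of the fit. Same-numbered deviations of the lines correlated at 0.12 to 0.60, and those of different numbers at -0.58 to 0.45 (the highest for WT 3 with KO 2). These correlations do not by themselves show that the numbers pair the arrays. The pairing rests on the labels, which state that a replicate number is a day shared by both lines. The main fits and the averaged fit did not use this pairing. No 2 arrays were identical.

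The members and lists were chosen with earlier results of these data known. Values are given for the 6 highest and 6 lowest called members, the largest changes over 120 min, and 13 fixed chains and glycoproteins; other members named were chosen after their values were seen. Alternatives covered blocking, normalization, filters, background, moderation, replicates, probe sets, averaging and experiments. Serum-deprived samples are not analysed here.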

Additional observations from a re-analysis of the deposited data

Results flagged for a closer look

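Of 250 groups of 4 or 5 arrays examined for 25 named genes, 14 held an array far from the rest, by a criterion that chance meets in about 1 of 20 groups. Experiment 5 supplied 6 of these. Tnc in KO at 60 min was high in experiment 5 (10.83, against 10.46 to 10.51 in the others). Fbln1 was low in experiment 5 in WT at 120 min (9.67, against 10.03 to 10.07) and in KO at 60 min (8.32, against 8.86 to 8.92). Col12a1 in WT at 120 min was low in the same experiment (9.38, against 9.98 to 10.16), as was Col1a2 in KO at 90 min (12.49, against 12.54 to 12.56), while Lamc1 in KO at 60 min was high (10.10, against 10.01 in the others). KO at 60 min holds no array of experiment 4. In experiment 4, Col3a1 in KO at 0 min was high (12.57, against 12.02 to 12.05), the group that holds no array of experiment 5. In experiment 3, Lum in WT at 90 min was high (8.58, against 8.32 to 8.38), Col5a1 was low in WT at 30 min (10.48, against 10.77 to 10.85) and in KO at 0 min (10.94, against 11.09 to 11.11), and Col6a2 in KO at 60 min was high (10.58, against 10.34 to 10.38). In experiment 2, Col7a1 in WT at 30 min was low (8.76, against 9.01 to 9.05) and Nid1 in WT at 90 min was high (11.45, against 11.19 to 11.25). In experiment 1, Lama4 in KO at 30 min was low (9.61, against 9.66 to 9.68).

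For 12 of the 25 named genes the difference between the lines varied over the experiments by limma's F test. The adjusted p was 1.9e-23 for Dcn, 6.62e-16 for Col6a3, 4.98e-15 for Col3a1, 1.06e-12 for Postn, 1.42e-10 for Fbln5, 1.99e-06 for Lum, 2.58e-06 for Lama4, 4.46e-05 for Fbln1, 0.00101 for Tnc, 0.00448 for Col6a2, 0.00459 for Nid1 and 0.0215 for Col5a2. Dcn, Col3a1 and Nid1 had both signs over the 5 experiments, and the other 9 kept 1 sign. Postn ranged from -2.14 to -1.28 and Tnc from 1.35 to 1.80.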

How the results depend on the processing

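The counts of members higher and lower over all times stayed within 1.5 times the reported 11 and 25 under blocking, both normalizations, both filters, background subtraction, plain moderation, each left-out replicate and each set of experiments. They moved to 7 higher with experiments averaged and 7 higher by the second probe set. The second probe set also gave 4 higher at 0 min and 5 higher at 120 min, and experiments 4 and 5 gave 9 lower at 0 min and 12 lower at 120 min. Slope differences gave 0 members under every alternative run.

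Counts of changes over 120 min were the least stable. In WT, 9 rose with the replicate block, 2 with the stricter filter and 1 by the second probe set, and 2 to 8 when a replicate was left out. One fall was called, of 1 gene, Col1a2, with the replicate block, quantile normalization, array medians set to 0 and the stricter filter, and 0 to 1 when a replicate was left out; in experiments 4 and 5 the 1 fall was Col6a4. In KO, 7 rose with the replicate block, 0 with quantile normalization, 0 with no filter, 1 after background subtraction, 1 by the second probe set, and 0 to 2 when a replicate was left out. One KO gene fell under quantile normalization (1, Col1a2), in experiments 4 and 5 (1, Col6a4) and by the second probe set (1, Tnc).

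Signs turned for Lamb1 when a replicate was left out (-0.011 to 0.025, below 0 without replicate 3) and in experiments 4 and 5 (-0.014), for Dcn in experiments 1 to 3 (-0.0025), for Col3a1 in experiments 4 and 5 (0.22), and by the second probe set for Fbln2 (-0.24), Col1a1 (-0.10) and Col1a2 (-0.013). Col3a1 lost its call without replicate 1 (adjusted p = 0.123) or 2 (0.148) and averaged (0.303), and Dcn without replicate 4 (0.0755) and averaged (0.109). The cause was not tested. Background subtraction widened differences that end near the floor: Fbln1 -2.31, Col7a1 -2.20, Lum 1.38, Col12a1 -1.13 and Lama4 0.70. Signal over background limits every value below about 8.7, and the number of arrays limits precision.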
